A study of Mus musculus with 6 samples.

Results

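The unfolded protein response and the ATF4 stress response were described across 41 genes in CD11B+ cells of the injured mouse kidney. The genes were listed by symbol, with earlier results of these data known, and all 41 were found among the 46603 genes of the count table. They fell into 20 genes of the ATF4 arm, which serve the response to amino acid shortage and other stress, and 21 genes of the ER arm, which sense and refold misfolded proteins in the endoplasmic reticulum (ER). CD11B is the integrin alpha M chain, a surface protein of monocytes, macrophages, granulocytes and NK cells.

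The cells came from kidneys of male mice aged 10 to 12 weeks, 3 days after bilateral ischemia-reperfusion injury (IRI-AKI) made by a 28-minute clamp of the renal pedicles. In 3 PTEC DN RAR mice, PEPCK-Cre activated the Rosa26-LSL-RARaT403X allele, which encodes a truncated retinoic acid receptor that acts as a dominant negative, in the epithelial cells of the proximal tubule (PTECs). The 3 Cre- controls carried the same allele without Cre, so the allele and the injury were shared by both genotypes. CD11B+ cells were collected on magnetic beads and gave 1 polyA RNA-Seq library per mouse from RNA with an integrity number above 7.9. The Cre driver acts in the proximal tubule, and no count in these libraries checked the genotype labels.

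When unfolded proteins gather in the ER, the sensors PERK, IRE1 and ATF6 raise chaperones, disulfide isomerases and the degradation machinery and slow translation. PERK and other kinases phosphorylate the initiation factor eIF2, which lowers general translation but favors translation of ATF4. ATF4 is a transcription factor that raises genes for amino acid uptake and synthesis, together with C/EBP partners and CHOP. Control of ATF4, XBP1 and ATF6 is in large part through translation, splicing or cleavage, which gene counts do not show. Macrophages and monocytes make many secreted and membrane proteins, which fold in the ER.

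The promoters of these genes carry known elements of the pathway, and the windows that held them are shown because each element lay mostly in one arm. Promoters were taken from RefSeq on GRCm38.p6 as the 300 bases from 250 before to 50 after each gene's start, and 36 of the 41 genes had an entry, 18 in each arm. Atf6, Cth, Hyou1, Manf and Slc7a5 had none. The ER stress element, CCAAT and CCACG with 9 bases between them, was searched on both strands and was found in 39 of 32851 promoters (0.119%). It was present in 7 of 18 promoters of the ER arm and in 0 of 18 of the ATF4 arm. The windows lay at chr2:34772020-34772048 (Hspa5, plus strand), chr8:84847055-84847113 (Calr, minus strand), chr11:50325780-50325838 (Canx, minus strand), chr12:17266471-17266529 (Pdia6, plus strand), chr10:86705618-86705676 and chr10:86705513-86705571 (Hsp90b1, minus strand), chr14:118937807-118937865 (Dnajc3, plus strand) and chr15:88819500-88819558 (Creld2, plus strand). Capitals mark both fixed ends of the element, which read CGTGG and ATTGG where it is on the other strand, and all sequences run 5′ to 3′ along the gene's strand.
Hspa5: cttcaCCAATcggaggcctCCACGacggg
Calr: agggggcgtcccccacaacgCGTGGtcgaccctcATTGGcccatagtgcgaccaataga
Canx: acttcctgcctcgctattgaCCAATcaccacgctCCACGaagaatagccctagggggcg
Pdia6: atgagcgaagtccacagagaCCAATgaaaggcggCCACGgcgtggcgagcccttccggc
Hsp90b1: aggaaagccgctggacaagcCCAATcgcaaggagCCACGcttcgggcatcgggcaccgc
Hsp90b1: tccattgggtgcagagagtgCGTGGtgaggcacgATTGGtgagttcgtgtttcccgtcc
Dnajc3: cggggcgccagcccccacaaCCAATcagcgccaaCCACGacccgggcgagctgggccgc
Creld2: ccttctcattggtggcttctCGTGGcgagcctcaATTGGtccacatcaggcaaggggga

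All of these elements ended between 47 and 194 bases before the start of the gene. The element contains the CCAAT box, CCAAT, which on its own was in 12289 promoters (37.4%), in 16 of 18 of the ER arm and in 11 of 18 of the ATF4 arm. The second element of the unfolded protein response, TGACGTGG, was in 222 promoters (0.676%) and in none of the 36 members' windows. A match is a description of letters, and these windows say nothing of binding.

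ATF4 binds with a C/EBP partner to a composite site, whose core was searched as TGATGNAA on both strands and was found in 1304 promoters (3.97%). It was in 6 of 18 promoters of the ATF4 arm, those of Asns, Chac1, Nupr1, Slc7a11, Trib3 and Vldlr, and in 1 of 18 of the ER arm, that of Herpud1. Slc7a11 held it in both directions. The Trib3 match began 14 bases after the start and is not shown. The windows lay at chr6:7693214-7693243 (Asns, minus strand), chr2:119351029-119351076 (Chac1, plus strand), chr7:126625562-126625591 (Nupr1, minus strand), chr3:50443652-50443699 (Slc7a11, minus strand), chr19:27216809-27216838 (Vldlr, plus strand) and chr8:94386297-94386344 (Herpud1, plus strand). Capitals mark the core.
Asns: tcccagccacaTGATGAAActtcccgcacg
Chac1: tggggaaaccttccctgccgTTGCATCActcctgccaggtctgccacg
Nupr1: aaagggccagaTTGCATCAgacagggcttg
Slc7a11: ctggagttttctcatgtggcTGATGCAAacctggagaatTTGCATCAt
Vldlr: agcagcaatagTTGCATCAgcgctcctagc
Herpud1: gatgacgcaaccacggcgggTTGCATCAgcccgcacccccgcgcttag

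Gene counts totaled 29318041 to 46517005 per library, and 3 counts, the floor used here, corresponded to 0.0645 to 0.1023 CPM, the count of a gene relative to the library total. Values below are CPM after TMM scaling of that total, and calls are those of edgeR's quasi-likelihood test at an adjusted p under 0.05 over 15440 genes. Mitochondrial transcripts took 5.03% to 8.77% of gene counts in Cre- controls but 10.38% to 12.08% in PTEC DN RAR mice, so the genotypes did not overlap. Of the CD11B fraction markers, Itgam, Ptprc, Fcgr1, Csf1r and Cd68, all were detected, with a sum of 7512 to 7696 CPM in controls and 5783 to 6653 CPM in PTEC DN RAR mice, and 3 of 5 were lower.

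Transcripts of several cell types moved with genotype. All 12 proximal tubule markers were higher in PTEC DN RAR mice, with a sum of 596 to 822 CPM in controls and 2215 to 3466 CPM in PTEC DN RAR mice. Of the loop and distal tubule markers 7 of 8 were higher (sums of 1221 to 1723 against 4269 to 8163 CPM), as were 6 of 6 for endothelium (61.1 to 91.8 against 182 to 220), 4 of 4 for podocytes (50.5 to 79.9 against 144 to 176) and 4 of 5 for stroma (60.3 to 72.4 against 60.2 to 163, overlapping). Infiltrating monocyte markers were lower for 6 of 7 genes, with sums of 3746 to 4039 against 1567 to 1640 CPM, and neutrophil markers for 5 of 7, with sums of 461 to 834 against 292 to 412 CPM. Resident macrophage markers summed to 9409 to 10488 against 8899 to 11798 CPM, with 1 of 6 lower and 1 higher. Dendritic cell markers had 1 lower and 2 higher of 6, with overlapping sums (91.6 to 137 against 106 to 136 CPM) but a mean of log2 CPM that was higher in PTEC DN RAR mice without overlap (difference 0.53, exact p = 0.1, the smallest possible). Plasma cell markers (1 lower and 2 higher of 5 tested; 34.8 to 42.5 against 35.9 to 60.3 CPM) and B, T and NK cell markers (0 of 6 tested called by edgeR, and 3 at an unadjusted p under 0.05; 1.87 to 3.59 against 2.10 to 7.91 CPM) had low sums that overlapped. No marker on these lists was at 0 in every library, and their part in the results below was not tested.

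Of the 41 genes, all of which passed the filter on low counts, 17 were lower in PTEC DN RAR mice, 5 were higher and 19 did not pass the test. Over all 15440 genes tested, 17.1% were lower and 23.6% were higher. The median log2 fold change of the 41 was -0.29, and 30 had a negative value, beside a median of 0.04 over all genes tested. In 21 of the 41 genes all 3 PTEC DN RAR libraries were below all 3 controls, as they were for 24.2% of all genes, and in 6 all were above, as they were for 29.2%. In pooled RNA of a cell fraction, fewer cells of a type and less RNA per cell cannot be told apart.

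The ER arm had 11 genes lower, 2 higher and 8 not called, with a median log2 fold change of -0.35. The ATF4 arm had 6 lower, 3 higher and 11 not called, with a median of -0.28 and the wider range, -1.19 to 1.69 against -0.73 to 0.84. Summed over its genes, the ER arm was at 7180, 7514 and 7781 CPM in Cre- controls and 5632, 6296 and 5484 CPM in PTEC DN RAR mice. The ATF4 arm was at 1214, 1053 and 1177 CPM in controls and 899, 888 and 915 CPM in PTEC DN RAR mice. With TMM scaling the genotypes overlapped for neither sum. On the pan-leukocyte scale both sums overlapped, with 6615 to 7334 CPM in controls and 5720 to 6661 CPM in PTEC DN RAR mice for the ER arm, and 962 to 1119 CPM compared with 913 to 1072 CPM for the ATF4 arm. With 1 library left out at a time, the counts of lower genes were smallest without PTEC DN RAR replicate 1. There 7 genes of the ER arm and 3 of the ATF4 arm were lower, beside 12.6% of all genes tested. Without Cre- control replicate 2 the ER arm had 1 gene higher.

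The size of these counts depended on the scale. When libraries were scaled on 20 leukocyte genes (Ptprc, Coro1a, Cd53 and others) in place of TMM, the median over all genes moved from 0.04 to 0.26, with 4.77% of all genes lower and 33.2% higher. On that scale the ER arm had 3 genes lower (Pdia3, Pdia4 and Pdia6) and 2 higher, with a median of -0.13. The ATF4 arm had 2 lower (Cebpb and Slc7a11) and 4 higher, with a median of -0.06.

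**Figure D1:**
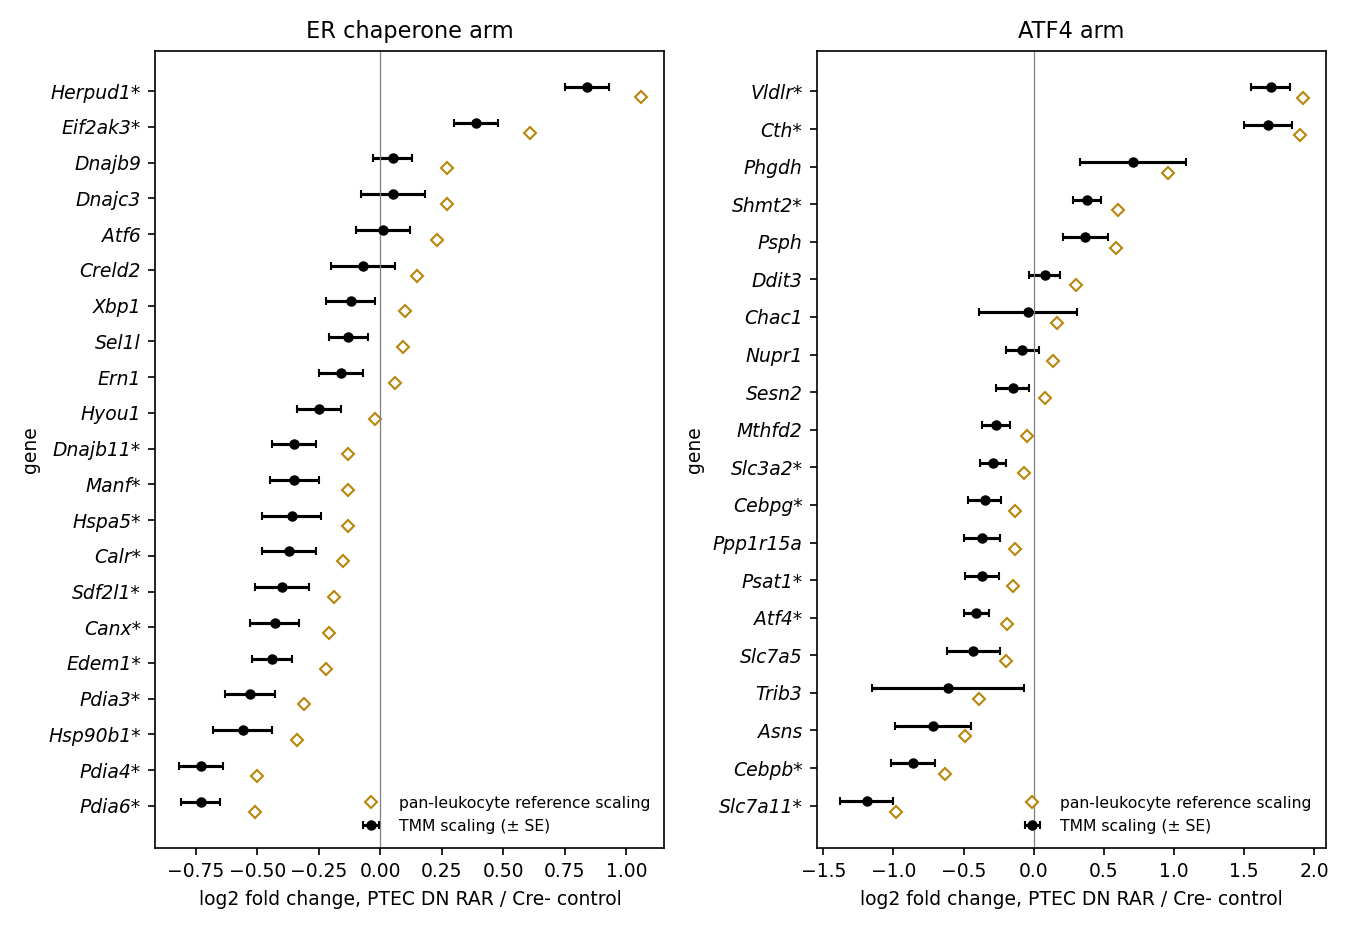
The log2 fold change of each gene, PTEC DN RAR over Cre- control, is shown for the 21 genes of the ER arm (left) and the 20 of the ATF4 arm (right), black points with SE bars for TMM scaling, open diamonds for scaling on the pan-leukocyte reference genes, and a star for an adjusted p under 0.05 with TMM. The diamonds lie to the right of the points throughout, Herpud1 tops the ER arm at 0.84, and Vldlr (1.69) and Cth (1.67) top the ATF4 arm.

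Among the sensors of ER stress and Xbp1, 1 of 4 genes, Eif2ak3, was called. Eif2ak3, the gene for PERK, the kinase that phosphorylates eIF2 under ER stress, was at 26.2, 25.1 and 28.6 CPM in Cre- controls and 35.6, 36.0 and 33.0 CPM in PTEC DN RAR mice. Every PTEC DN RAR library was above every control, and the gene rose by a log2 fold change of 0.39 ± 0.09 (SE, adjusted p = 0.0112). Without Cre- control replicate 2 the change was 0.30 with an adjusted p of 0.0595. Its exons share 485 bases with Gm43292 on the opposite strand, and whether counting used strand was not given in the sources used here.

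Ern1 encodes IRE1, the nuclease that splices Xbp1 mRNA. It was at 70.7, 73.6 and 80.8 CPM in controls and 67.4, 71.2 and 63.1 CPM in PTEC DN RAR mice, with overlap, a log2 fold change of -0.16 (95% interval -0.36 to 0.04) and an adjusted p of 0.182. Atf6, the membrane-bound factor released by cleavage, was at 245, 288 and 237 CPM in controls and 265, 276 and 234 CPM in PTEC DN RAR mice. Its libraries were interleaved, with a log2 fold change of 0.01 (-0.23 to 0.25) and an adjusted p of 0.954. Xbp1, the factor made active by IRE1, was at 209, 192 and 179 CPM in controls and 168, 194 and 169 CPM in PTEC DN RAR mice. The genotypes overlapped, with a log2 fold change of -0.12 (-0.34 to 0.10) and an adjusted p of 0.337, and gene counts do not separate spliced from unspliced Xbp1.

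Among the 11 chaperones and co-chaperones 7 were lower and 4 were not called, with a median log2 fold change of -0.35. The 7 were between 0.680 and 0.785 times the control level, and each lost its call on the pan-leukocyte scale (adjusted p from 0.0571 to 0.436), where Dnajb9, Dnajc3 and Creld2 had positive values. Hspa5 (BiP), the ER Hsp70 that also holds the sensors inactive, was at 1175, 1079 and 1341 CPM in Cre- controls and 862, 1032 and 914 CPM in PTEC DN RAR mice. All of its PTEC DN RAR values were below the lowest control, by a narrow margin for replicate 2, and the gene fell by 0.36 ± 0.12 on the log2 scale (adjusted p = 0.0413). That call was lost when Cre- control replicate 1 (adjusted p = 0.059) or 3 (0.102) or PTEC DN RAR replicate 1 (0.13) or 3 (0.0624) was left out. Hsp90b1 (GRP94), the ER Hsp90 that folds Toll-like receptors and integrins, was at 786, 952 and 997 CPM in controls and 590, 689 and 581 CPM in PTEC DN RAR mice. It was lower in each PTEC DN RAR library than in any control and had the largest fall of the group, 0.56 ± 0.12 (adjusted p = 0.00784). Its exons overlap 217 bases of other genes on the same strand and 415 on the opposite strand.

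Calr and Canx encode calreticulin and calnexin, the lectin chaperones of glycoproteins. Calr was at 1196, 1251 and 1182 CPM in controls and 942, 1023 and 839 CPM in PTEC DN RAR mice, and Canx was at 608, 677 and 718 CPM and 467, 536 and 484 CPM. Neither gene overlapped between genotypes, with log2 fold changes of -0.37 ± 0.11 for Calr (adjusted p = 0.0218) and -0.43 ± 0.10 for Canx (adjusted p = 0.011). The call for Calr, which has a pseudogene of its name in the GENCODE M21 annotation, was lost without PTEC DN RAR replicate 1 (adjusted p = 0.0576). Dnajb11, an Hsp40 partner of BiP, was at 132, 128 and 136 CPM in controls and 97.1, 115 and 99.2 CPM in PTEC DN RAR mice. Its controls lay close together above all PTEC DN RAR libraries, and the log2 fold change was -0.35 ± 0.09 (adjusted p = 0.0154, and 0.0573 without PTEC DN RAR replicate 1).

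Sdf2l1, which works in a complex with BiP and its Hsp40 partners, was at 99.6, 89.5 and 90.3 CPM in controls and 74.1, 78.0 and 59.4 CPM in PTEC DN RAR mice. PTEC DN RAR replicate 3 was the lowest of 6 libraries, no library crossed to the other genotype's range, and the log2 fold change was -0.40 ± 0.11 (adjusted p = 0.0217). Manf, an ER-resident protein that is secreted under stress, was at 107, 85.1 and 94.5 CPM in controls and 74.2, 80.0 and 70.3 CPM in PTEC DN RAR mice. The nearest values of the genotypes were 85.1 and 80.0 CPM, and the log2 fold change was -0.35 ± 0.10 (adjusted p = 0.0251). Its call was lost without Cre- control replicate 1 (adjusted p = 0.0521) or PTEC DN RAR replicate 1 (0.0682), and 312 bases of its exons overlap other genes on the opposite strand.

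The remaining 4 co-chaperones were not called. Hyou1 (GRP170), the nucleotide exchange factor of BiP, had 154 to 163 CPM in controls and 125 to 149 CPM in PTEC DN RAR mice, which did not overlap, with a log2 fold change of -0.25 (adjusted p = 0.0644, 0.0272 without PTEC DN RAR replicate 2, and 0.0243 to 0.875 over the alternatives). Dnajb9, a co-chaperone that acts on IRE1, had 35.3 to 37.0 CPM and 36.1 to 39.5 CPM, with a log2 fold change of 0.05 (95% interval -0.14 to 0.23, adjusted p = 0.67). Dnajc3 (p58IPK) had 103 to 131 CPM and 110 to 139 CPM, with a log2 fold change of 0.05 (-0.24 to 0.34, adjusted p = 0.784). Creld2, a stress-induced ER protein, had 26.3 to 36.4 CPM and 28.7 to 32.4 CPM, with a log2 fold change of -0.07 (-0.36 to 0.22, adjusted p = 0.671). Dnajc3 and Creld2 were the genes with an ER stress element that were not called.

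The disulfide isomerases, which form and rearrange disulfide bonds of folding proteins, all fell, 3 of 3, with a median log2 fold change of -0.73. They are the only genes of the ER arm that were called lower under every one of the 15 alternatives tried. Pdia3 (ERp57), the partner of calreticulin and calnexin, was at 967, 1113 and 1095 CPM in Cre- controls and 713, 772 and 707 CPM in PTEC DN RAR mice. Its lowest control was well above its highest PTEC DN RAR library, and the log2 fold change was -0.53 ± 0.10 (adjusted p = 0.00391, and 0.0393 on the pan-leukocyte scale).

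Pdia4 (ERp72) was at 232, 228 and 237 CPM in controls and 129, 154 and 137 CPM in PTEC DN RAR mice. The controls were tightly grouped (232 ± 4.59 CPM, SD, n = 3), the genotypes were far apart, and the log2 fold change was -0.73 ± 0.09 (adjusted p = 0.000688). Pdia6 (P5), an isomerase that also acts on the sensors, was at 391, 393 and 405 CPM in controls and 232, 253 and 232 CPM in PTEC DN RAR mice. Its PTEC DN RAR mean was 0.603 times the control mean, and the log2 fold change was -0.73 ± 0.08 (adjusted p = 0.000478). On the pan-leukocyte scale both kept their call, Pdia4 at -0.50 (adjusted p = 0.00541) and Pdia6 at -0.51 (adjusted p = 0.00295).

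**Figure D2:**
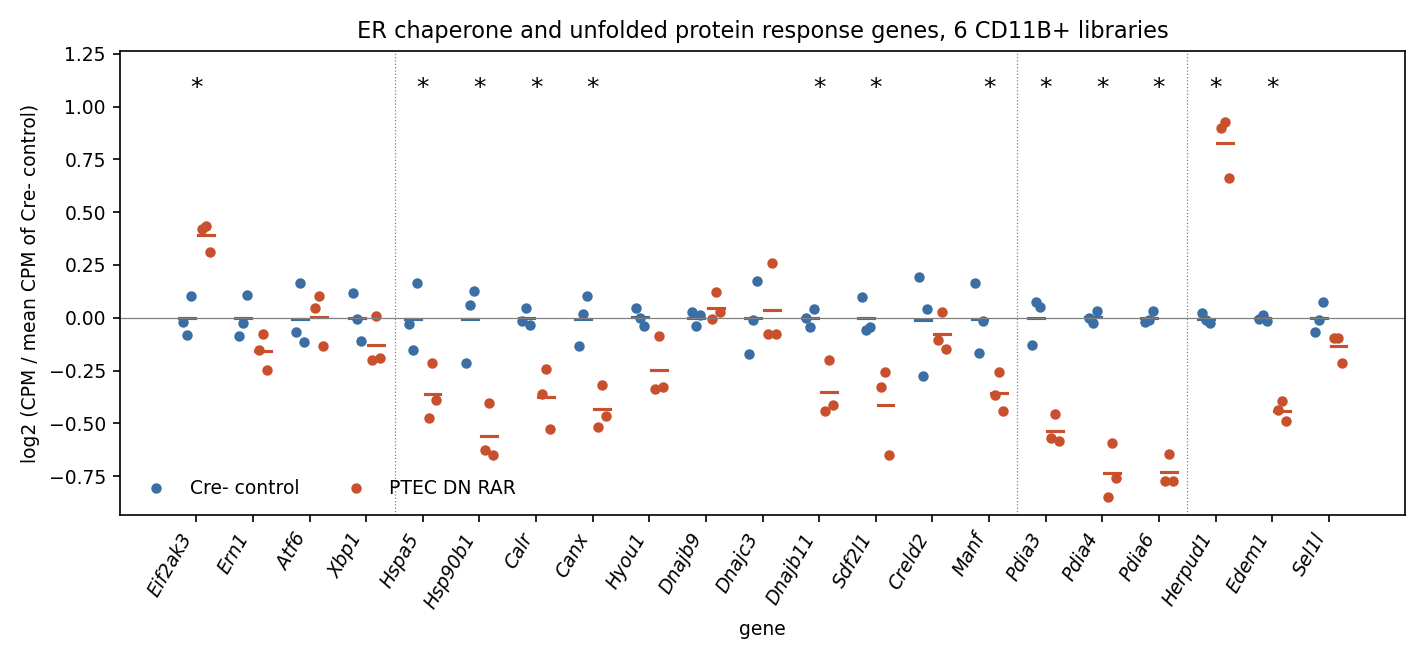
Each point is 1 library of the ER arm genes, as log2 of its CPM over the mean of the Cre- controls (blue, controls; orange, PTEC DN RAR; bars, mean of the log values; star, adjusted p under 0.05; dotted lines separate sensors, chaperones, isomerases and degradation). The isomerases Pdia4 and Pdia6 lie lowest, while Eif2ak3 and Herpud1 lie above their controls in all 3 PTEC DN RAR libraries.

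The degradation genes diverged. Herpud1 (HERP) builds the ubiquitin ligase complex that removes misfolded ER proteins. It was at 121, 118 and 117 CPM in Cre- controls and 222, 226 and 188 CPM in PTEC DN RAR mice. Its PTEC DN RAR mean was 1.79 times the control mean, with 119 ± 2.26 CPM against 212 ± 20.8 CPM (SD, n = 3) and a log2 fold change of 0.84 ± 0.09 (adjusted p = 0.000455). Herpud1 was the largest change in either direction in the ER arm, was called under all 15 alternatives, and was the only gene with a composite core among the 18 promoters of the arm that were searched.

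Edem1, a lectin that hands misfolded glycoproteins to degradation, was at 309, 313 and 307 CPM in controls and 229, 236 and 221 CPM in PTEC DN RAR mice. Replicates were close in both genotypes (310 ± 3.24 and 229 ± 7.32 CPM, SD, n = 3), and the log2 fold change was -0.44 ± 0.08 (adjusted p = 0.00319, and 0.0832 on the pan-leukocyte scale). Sel1l, the scaffold of the HRD1 ligase, had 166 to 183 CPM in controls and 150 to 163 CPM in PTEC DN RAR mice, with no overlap, a log2 fold change of -0.13 (95% interval -0.32 to 0.05) and an adjusted p of 0.226.

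Calls did not follow the ER stress element strictly. Of the 7 genes with the element in the window, 5 were lower and 2 were not called (median log2 fold change -0.37), and of the 11 promoters of the ER arm without it, 5 were lower and 2 higher (median -0.16). Over all genes tested, 17.1% were lower and 23.6% were higher. On the pan-leukocyte scale, Pdia6 was the only gene with the element that stayed lower. Of those without it, Pdia3 and Pdia4 stayed lower. The counts by element are over few genes and were not tested. The isomerases were split, with Pdia6 carrying the element and Pdia3 and Pdia4 not.

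The transcription factors of the ATF4 arm had 3 of 5 genes lower. Atf4 itself was at 138, 120 and 140 CPM in Cre- controls and 102, 104 and 93.1 CPM in PTEC DN RAR mice. The lowest control was above the highest PTEC DN RAR library, with 133 ± 11.2 and 99.7 ± 5.86 CPM (SD, n = 3) and a log2 fold change of -0.41 ± 0.09 (adjusted p = 0.00883). On the pan-leukocyte scale its value was -0.19 (adjusted p = 0.165). Cebpb, a partner of ATF4 that is also a main factor of monocytes and of inflammation, was at 304, 200 and 287 CPM in controls and 146, 129 and 161 CPM in PTEC DN RAR mice. It had the largest fall of the factors, with Cre- control replicate 2 well below the other controls yet above every PTEC DN RAR library, and a log2 fold change of -0.86 ± 0.16 (adjusted p = 0.00391). The call held under all 15 alternatives, and 312 bases of its exon are shared with Tmem189 on the opposite strand.

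Cebpg, another C/EBP partner of ATF4, was at 76.6, 72.7 and 84.6 CPM in controls and 60.7, 70.4 and 52.6 CPM in PTEC DN RAR mice. The gap between the genotypes was 72.7 against 70.4 CPM, and the log2 fold change was -0.35 ± 0.12 (adjusted p = 0.0424). Its call was lost without Cre- control replicate 1 (adjusted p = 0.0606) or 3 (0.104) or without PTEC DN RAR replicate 1 (0.101) or 3 (0.0781). Ddit3 (CHOP), the factor of prolonged ER stress, was at 17.4, 15.2 and 18.1 CPM in controls and 18.2, 18.6 and 16.7 CPM in PTEC DN RAR mice. The genotypes overlapped, with a log2 fold change of 0.08 (95% interval -0.18 to 0.34) and an adjusted p of 0.606. Its exons overlap Mars and Gm4189 on the opposite strand by 81 bases. Nupr1, a stress-induced chromatin protein, was at 18.5, 18.8 and 15.6 CPM in controls and 17.8, 15.9 and 16.3 CPM in PTEC DN RAR mice, which also overlapped (log2 fold change -0.08, interval -0.35 to 0.19, adjusted p = 0.606).

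The feedback and stress effectors had 0 of 4 genes called by edgeR and 1, Ppp1r15a, at an unadjusted p under 0.05, and the 4 values were negative in the fit of all 6 libraries with TMM, while Chac1 and Sesn2 were positive on the pan-leukocyte scale. Ppp1r15a (GADD34), the phosphatase subunit that reverses eIF2 phosphorylation, had 81.7 to 107 CPM in controls and 64.4 to 83.6 CPM in PTEC DN RAR mice, with a log2 fold change of -0.37 ± 0.13 (adjusted p = 0.0517). Over the alternatives its adjusted p ran from 0.0175, without PTEC DN RAR replicate 3, to 0.536 on the pan-leukocyte scale, and was 0.0259 without Cre- control replicate 2. Sesn2, a leucine-sensing inhibitor of mTORC1, had 21.2 to 27.7 CPM and 20.3 to 23.3 CPM (log2 fold change -0.15, adjusted p = 0.367). Trib3, a pseudokinase that restrains ATF4, and Chac1, which degrades glutathione, were scarce, with 25 to 78 and 26 to 50 counts per library. Their log2 fold changes were -0.61 ± 0.54 (adjusted p = 0.393) and -0.04 ± 0.35 (adjusted p = 0.934). Both turned positive without Cre- control replicate 2, the highest library for each, with 0.20 (adjusted p = 0.744) for Trib3 and 0.24 (adjusted p = 0.643) for Chac1.

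Of the 7 enzymes of amino acid and one-carbon metabolism 2 were higher and 1 was lower, near the shares over all genes (23.6% and 17.1%), and the median log2 fold change of 0.37 was that of Psph, which was not called. Cth, cystathionine gamma-lyase, which makes cysteine from cystathionine, was at 3.79, 3.05 and 4.21 CPM in Cre- controls and 10.3, 12.8 and 12.3 CPM in PTEC DN RAR mice. The PTEC DN RAR mean was 3.20 times the control mean with no overlap, a log2 fold change of 1.67 ± 0.17 (adjusted p = 0.000317), and a call under all 15 alternatives. Shmt2, the mitochondrial serine hydroxymethyltransferase, was at 35.7, 44.4 and 40.7 CPM in controls and 51.1, 55.7 and 50.1 CPM in PTEC DN RAR mice. The highest control, 44.4 CPM, was under the lowest PTEC DN RAR library, with a log2 fold change of 0.38 ± 0.10 (adjusted p = 0.0176, lost without Cre- control replicate 3 at 0.087 or PTEC DN RAR replicate 2 at 0.0608).

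The serine synthesis enzymes Phgdh, Psat1 and Psph act in succession, and 1 of these 3, Psat1, was called. Psat1 was at 45.1, 60.3 and 55.8 CPM in controls and 44.1, 43.1 and 37.7 CPM in PTEC DN RAR mice. Cre- control replicate 1 was barely above PTEC DN RAR replicate 1, the log2 fold change was -0.37 ± 0.12 (adjusted p = 0.04), and the call was lost when any library but Cre- control replicate 1 was left out (adjusted p from 0.0619 to 0.0874). Psph had 6.23 to 8.08 CPM in controls and 8.13 to 10.5 CPM in PTEC DN RAR mice, with a log2 fold change of 0.37 ± 0.16 (adjusted p = 0.0938, and 0.0243 on the pan-leukocyte scale), and shares 452 bases with Cct6a on the opposite strand. Phgdh, the first enzyme, was the scarcest per length in controls and also has a pseudogene of its name in the GENCODE M21 annotation. Phgdh had 30 to 152 counts per library, 0.95 to 2.11 CPM in controls and 1.74 to 3.22 CPM in PTEC DN RAR mice (log2 fold change 0.71 ± 0.38, adjusted p = 0.165). Its log2 fold change was 0.31 (adjusted p = 0.55) without PTEC DN RAR replicate 3, 0.45 (0.443) without Cre- control replicate 3 and 1.09 (0.055) without Cre- control replicate 2.

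Asns, asparagine synthetase and a classic ATF4 target, had 2.95 to 6.27 CPM in controls and 2.59 to 3.01 CPM in PTEC DN RAR mice. Only Cre- control replicate 1 fell within the PTEC DN RAR range, and the log2 fold change was -0.72 ± 0.27 (adjusted p = 0.0626). Its adjusted p was 0.0104 without that control and 0.186 (log2 fold change -0.46) without Cre- control replicate 2, and ran to 0.201 on the pan-leukocyte scale. Mthfd2, a mitochondrial folate enzyme, had 32.6 to 33.9 CPM in controls and 24.7 to 30.5 CPM in PTEC DN RAR mice, without overlap (log2 fold change -0.27 ± 0.10, adjusted p = 0.0615, 0.0449 without PTEC DN RAR replicate 2, and 0.022 to 0.741 over the alternatives).

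Of the 3 transporter genes and Vldlr, 2 were lower and 1 was higher. Slc7a11 (xCT), the cystine-glutamate exchanger, was at 19.6, 25.3 and 32.9 CPM in Cre- controls and 13.1, 10.6 and 10.4 CPM in PTEC DN RAR mice. It had the largest fall of the 41 genes, to 0.437 times the control mean, with wide spread among controls but no overlap (log2 fold change -1.19 ± 0.19, adjusted p = 0.00213), and was called under all 15 alternatives. Slc3a2 (CD98), the heavy chain that carries xCT and LAT1 to the membrane, was at 344, 294 and 306 CPM in controls and 255, 253 and 261 CPM in PTEC DN RAR mice. The PTEC DN RAR libraries were close together and under the lowest control, with a log2 fold change of -0.29 ± 0.09 (adjusted p = 0.0283). That call was lost without Cre- control replicate 1 (adjusted p = 0.057) or PTEC DN RAR replicate 1 (0.0759) or 2 (0.0789). It was also lost with library size without mitochondrial transcripts (0.06) and on the pan-leukocyte scale, where the value was -0.07 (0.639).

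Slc7a5 (LAT1), the leucine transporter, had 20.5 to 34.5 CPM in controls and 17.3 to 20.4 CPM in PTEC DN RAR mice, with a log2 fold change of -0.43 ± 0.19 (adjusted p = 0.107). Cre- control replicate 2 was the highest library, and without it the value was -0.20 (adjusted p = 0.248), as large as on the pan-leukocyte scale (adjusted p = 0.46). Vldlr, the very low density lipoprotein receptor, which ATF4 can induce, was at 9.40, 8.39 and 9.54 CPM in controls and 25.2, 28.4 and 34.4 CPM in PTEC DN RAR mice. It had the largest rise of the 41 genes, to 3.22 times the control mean, with a log2 fold change of 1.69 ± 0.14 (adjusted p = 0.000201) and a call under all 15 alternatives. Vldlr, Cth and Herpud1 rose in the same libraries in which tubule, endothelial and podocyte markers were higher, and Cebpb and Slc7a11 fell in those in which infiltrating monocyte markers were lower. What these cells contributed to each gene was not tested.

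**Figure D3:**
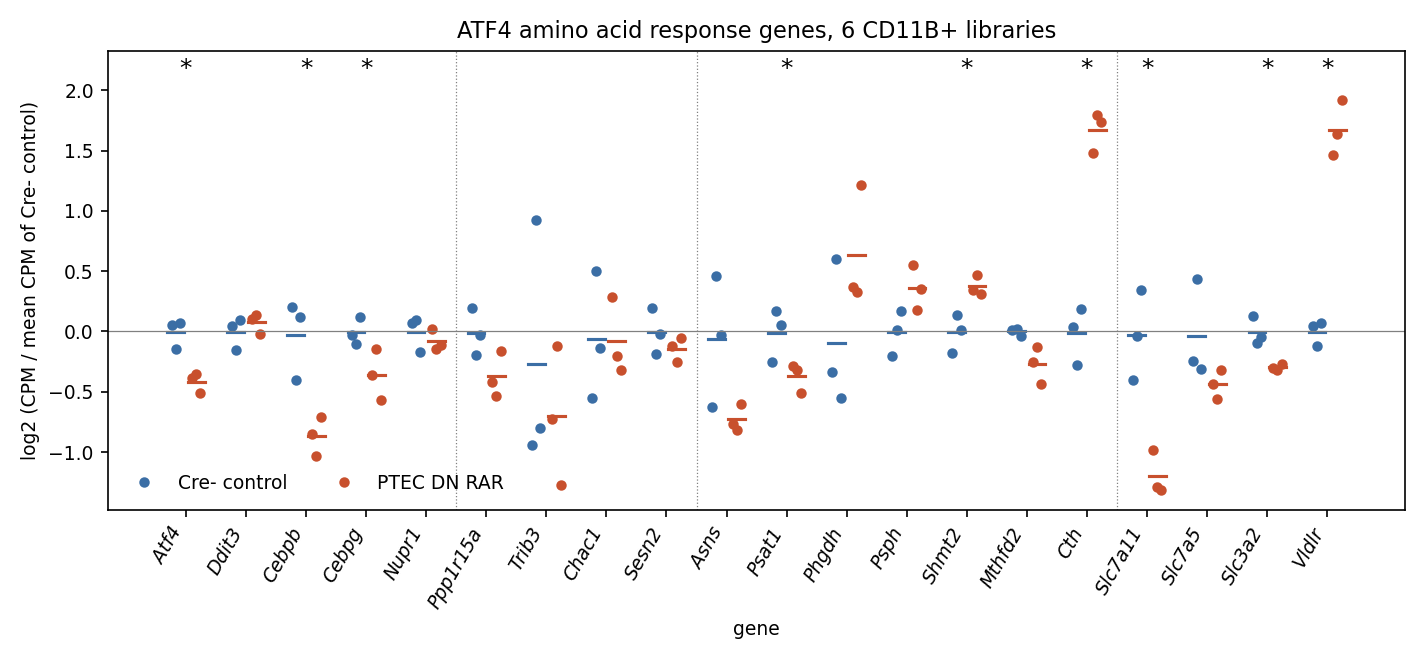
Each point is 1 library of the ATF4 arm genes, as log2 of its CPM over the mean of the Cre- controls (blue, controls; orange, PTEC DN RAR; bars, mean of the log values; star, adjusted p under 0.05; dotted lines separate factors, effectors, enzymes and transporters with Vldlr). Cth and Vldlr stand more than 1 log2 unit above their controls and Slc7a11 about 1 unit below, while the scarce genes Trib3, Chac1 and Phgdh are widely spread.

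Of the 7 genes that held the composite core, Slc7a11 was lower, Vldlr and Herpud1 were higher, and Asns, Chac1, Nupr1 and Trib3 were not called (median log2 fold change -0.08). With 17.1% of all genes lower and 23.6% higher, these counts are near the background, and they were not tested.

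Levels between genes were compared per kilobase of merged exons. Calr was the most abundant in Cre- controls at 420 CPM per kilobase (410 to 434 over the libraries), followed by Pdia3 at 337 (308 to 355), Hspa5 at 283 (255 to 317) and Hsp90b1 at 226 (195 to 247). The library ranges of Pdia3 and Hspa5 overlapped, those of Calr and Pdia3 did not, and these 4 genes held the same order in PTEC DN RAR mice, at 324, 233, 221 and 154 CPM per kilobase. Cebpb was at rank 5 in controls with 175 CPM per kilobase (133 to 202), its range meeting that of Hsp90b1, and at rank 6 in PTEC DN RAR mice. Herpud1 moved from rank 13 at 50.9 to rank 7 at 90.9 CPM per kilobase, and Pdia4 from rank 8 at 96.7 to rank 11 at 58.4. Atf4 ranked 12 in controls at 56.2 CPM per kilobase beside Xbp1 at 59.5, whose ranges overlapped, while Ddit3 was at 9.85. The lowest levels in controls were those of Vldlr (0.905), Trib3 (0.647), Chac1 (0.596) and Phgdh (0.559).

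Ratios of counts within a library do not depend on the scaling between libraries, and 9 were taken for pairs of these genes, chosen after their values had been seen. With 3 mice per genotype the smallest p of a two-sided exact permutation test is 0.1, so no ratio could pass 0.05. Herpud1 had 10.3, 10.9 and 8.71 counts per 100 Hspa5 counts in Cre- controls, compared with 25.8, 21.9 and 20.6 in PTEC DN RAR mice, without overlap (exact p = 0.1). Pdia6 had 33.2, 36.4 and 30.2 counts per 100 of Hspa5 in controls, compared with 26.9, 24.5 and 25.4 in PTEC DN RAR mice (exact p = 0.1). For Pdia4 the ratios were 19.7, 21.1 and 17.6 in controls, compared with 15.0, 14.9 and 15.0 in PTEC DN RAR mice (exact p = 0.1). Relative to Hspa5, therefore, no library crossed between genotypes for Herpud1, which was the higher in PTEC DN RAR mice, or for Pdia4 and Pdia6, which were the lower. Pdia3, the other isomerase, overlapped, with 82.3, 103 and 81.6 counts per 100 of Hspa5 in controls, compared with 82.8, 74.8 and 77.3 in PTEC DN RAR mice (exact p = 0.3).

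Calr and Hspa5 had counts of like size in both genotypes, with 102, 116 and 88.1 Calr counts per 100 Hspa5 counts in controls, compared with 109, 99.1 and 91.7 in PTEC DN RAR mice (exact p = 0.9). Hsp90b1 overlapped as well, at 66.9, 88.2 and 74.4 against 68.5, 66.8 and 63.6 (exact p = 0.2). The spread of these ratios leaves room for a difference that 3 mice per genotype could not show.

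Ddit3 had 12.6, 12.7 and 12.9 counts per 100 Atf4 counts in controls, compared with 17.9, 17.9 and 18.0 in PTEC DN RAR mice, without overlap (exact p = 0.1). All PTEC DN RAR ratios were above all control ratios, with Atf4 called lower and Ddit3 not called. The SD was 1.48% of the mean in controls and 0.32% in PTEC DN RAR mice, less than the 3.56% to 4.70% counting error of the 452 to 790 Ddit3 counts. Cebpb per 100 Atf4 counts overlapped, at 220, 167 and 205 against 143, 123 and 173 (exact p = 0.2). Slc7a11 had 5.70, 8.59 and 10.8 counts per 100 counts of its partner Slc3a2 in controls, compared with 5.12, 4.18 and 3.97 in PTEC DN RAR mice (exact p = 0.1).

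**Figure D4:**
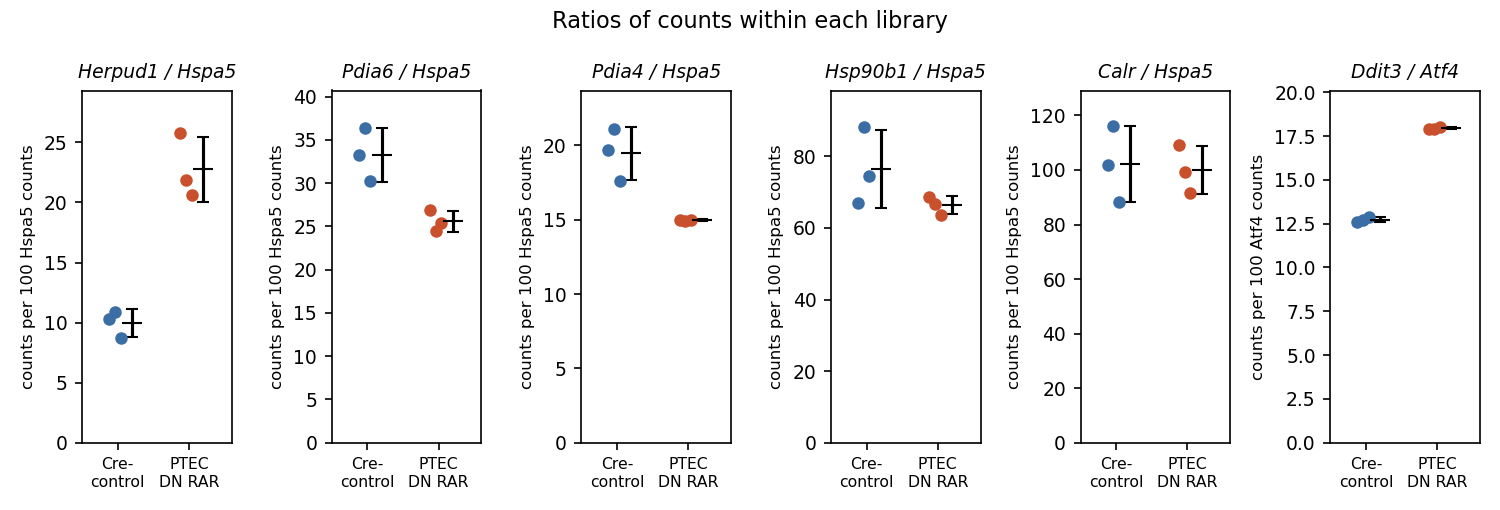
Counts of a gene per 100 counts of a second gene in the same library are shown for 6 pairs, with a point for each of the 3 Cre- control (blue) and 3 PTEC DN RAR (orange) libraries, black marks for mean ± SD and each vertical axis from 0. The Herpud1 to Hspa5 ratio runs from 8.71 to 10.9 in controls but spans 20.6 to 25.8 in PTEC DN RAR mice, while the Calr to Hspa5 ratios overlap.

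Other genes of the pathway, 74 that are not among the 41, showed 28 lower, 7 higher and 38 not called, beside 17.1% lower and 23.6% higher over all genes tested, and Fgf21 did not pass the filter. Their median log2 fold change was -0.25. Genes of the translocon and of export from the ER, which bring secreted proteins in and out of this compartment, had 8 of 10 lower (median -0.36), and all 10 values were negative. Aminoacyl-tRNA synthetases, several of which ATF4 raises, had 6 of 12 lower, with 12 negative values and a median of -0.27. Other folding and redox genes had 6 of 14 lower and 3 higher. Other degradation genes had 2 of 9 lower, other sensors and proteases 1 lower and 1 higher of 7, the group of eIF2 kinases, a phosphatase subunit and eIF2 itself 2 of 5 lower (Ppp1r15b and Eif2s1, and no kinase), other stress factors 2 of 6 tested lower, and other transporters and enzymes 1 lower and 3 higher of 10. On the pan-leukocyte scale 5 of the 73 were lower, beside 4.77% of all genes. The 7 higher genes became 3 without Cre- control replicate 3, where 15.2% of all genes were higher. They became 4 without PTEC DN RAR replicate 3, where 19.1% were.

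Only Cbs and Fkbp14 among these passed the test with a log2 fold change of at least 1 in size. Cbs, cystathionine beta-synthase, which makes the cystathionine that Cth cleaves, was at 4.56, 2.82 and 4.18 CPM in Cre- controls and 14.8, 16.6 and 14.5 CPM in PTEC DN RAR mice. Like Cth, it did not overlap between genotypes, with a log2 fold change of 1.98 ± 0.19 (adjusted p = 0.000277). Fkbp14, an ER prolyl isomerase, was at 0.973, 1.74 and 0.792 CPM in controls and 2.25, 3.39 and 3.03 CPM in PTEC DN RAR mice, with a log2 fold change of 1.31 ± 0.33 (adjusted p = 0.013).

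**Figure D5:**
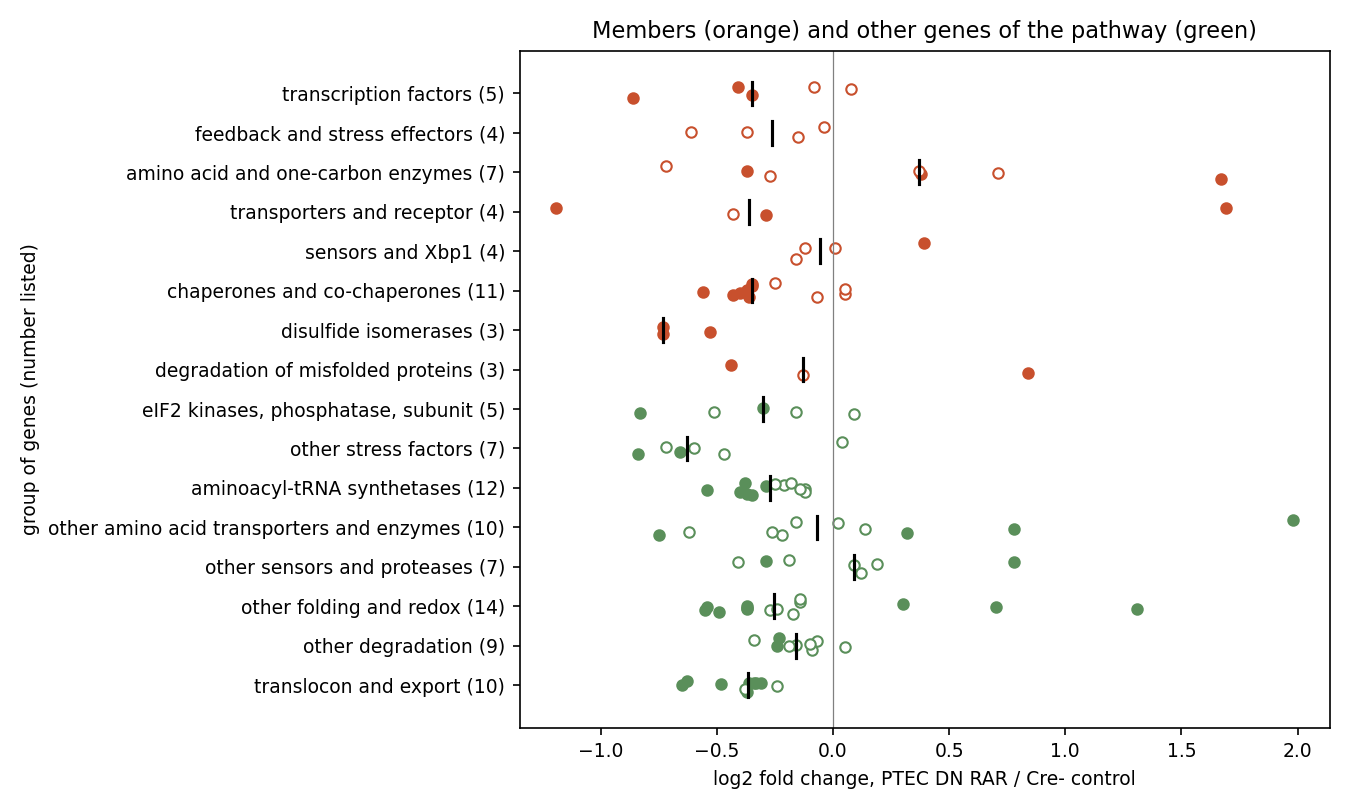
Log2 fold changes (PTEC DN RAR over Cre- control) of the 41 genes (orange) and the other pathway genes (green) are grouped by role, with the number listed in brackets, filled points for an adjusted p under 0.05, open points for other genes and a black bar at the group median. The isomerases have the lowest median of the member groups at -0.73, the amino acid and one-carbon enzymes the highest at 0.37, and all 10 translocon and export genes lie below 0.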

How the data were processed

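CD11B+ kidney cells of 6 mice, 3 per genotype, were sequenced by the authors with 1 library each. The authors deposited raw counts per Ensembl gene. The submitters' processing notes name STAR 2.5.0a, HTSeq 0.6.1, edgeR, limma and GRCm38. A summary line for alignments that were not unique held 42.93% to 47.75% of gene counts and summary lines together in each library. Reads aligned to more than 1 place were not counted for any gene, which lowers genes with near-identical copies such as pseudogenes. The annotation and strand setting were not given in the sources used here. The table had 46612 gene lines, of which 9 repeated an identifier and were collapsed, and 5 summary lines left out of library sizes (no feature 2.39% to 3.97%, ambiguous 0.46% to 0.53%). Coordinates and exon lengths are from GENCODE M21 on GRCm38, in which 46091 identifiers were found.

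Genes were kept by filterByExpr and libraries scaled by TMM. The fit across all genes used edgeR 4.0.16 (glmQLFit, glmQLFTest; R 4.3.3), and p-values were adjusted by Benjamini-Hochberg over the 15440 genes kept. The SE is the log2 fold change divided by the square root of F, and intervals are at 95%, for 1 gene at a time. Intervals and floors cover counting and replicate error only. Replicates of a genotype differed by more than sampling noise (chi-square per degree of freedom of 29.8 or more), so none was counted once for 2. The members, gene lists, markers and promoter motifs were chosen with earlier results of these data known. Named were all 41 genes, library by library for factors, sensors, Hspa5 and called genes, and of the other pathway genes those with an adjusted p under 0.05 and a log2 fold change of at least 1 in size. The alternatives were DESeq2 1.42.0, limma-voom (limma 3.58.1), no filter, at least 10 counts in every library, DESeq2 size factors, library size with and without mitochondrial transcripts, pan-leukocyte reference genes, the replicate number as a block, and each library left out in turn. Marker lists were also tried with a prior count of 0.25 in place of 2 on log2 CPM. Protein sequences were not used here. Tables and figures were made in Python 3.11.15 with matplotlib 3.10.9, scipy 1.17.1, pandas 2.3.3 and numpy 2.4.6.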

Additional observations from a re-analysis of the deposited data

How the results depend on the processing

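Of 615 log2 fold changes of the 41 genes under 15 alternatives, 554 kept their side of the threshold, 45 lost a call and 16 gained one. In 26 the sign changed, all of them in genes that were not called. Cebpb, Slc7a11, Pdia3, Pdia4 and Pdia6 were called lower, and Cth, Vldlr and Herpud1 higher, under all 15. Scaling on the pan-leukocyte genes lowered the counts of lower genes from 6 to 2 in the ATF4 arm, from 11 to 3 in the ER arm, from 28 to 5 in other pathway genes and from 2636 to 736 over all genes, and moved the log2 difference of resident macrophage markers to 0.39, of infiltrating monocyte markers to -1.07 and of CD11B fraction markers to -0.19. Over all genes the split of 2636 lower and 3640 higher became 736 and 5124 on that scale. Leaving mitochondrial transcripts out of the library size left 3 genes lower in the ATF4 arm, 10 in the ER arm, 19 of the other pathway genes and 1845 of all genes (11.9%). Cebpg, Psat1, Slc3a2 and Hspa5 lost their calls there.

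With each library left out in turn, the lower genes numbered 3 to 6 in the ATF4 arm and 7 to 12 in the ER arm, both fewest without PTEC DN RAR replicate 1, while over all genes they numbered 1874 to 2824 (11.7% to 17.7%). The higher genes of the ER arm numbered 1 to 2, with 1 without Cre- control replicate 2. Those of other pathway genes numbered 3 to 7, with 3 without Cre- control replicate 3 and 4 without PTEC DN RAR replicate 3. Over all genes, 15.2% to 23.2% were higher in these fits. With DESeq2, 9 genes of the ATF4 arm were lower and 12 of the ER arm. The share of all genes that were lower was 21.2% with DESeq2 and 17.1% in the main fit.

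Replicate numbers are shared by the genotypes but name different mice, and same-numbered libraries did not deviate together (correlations of -0.01, 0.21 and 0.03). With the replicate block, 16.9% of all genes were lower and 23.4% higher. The ATF4 arm then had 5 lower and 3 higher genes and the ER arm 10 lower and 2 higher. Hspa5, Cebpg and Psat1 lost their calls with the block and Ppp1r15a gained one. With 3 mice per genotype, the spread between mice limits what could be detected, as for Trib3 and Chac1.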

Other observations

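Of the other pathway genes that were called without reaching a log2 fold change of 1, 5 are given here as examples, chosen after their values had been seen. Atf3, a stress-induced factor that limits inflammatory genes in macrophages, was at 1019, 922 and 967 CPM in Cre- controls and 551, 490 and 579 CPM in PTEC DN RAR mice (log2 fold change -0.84 ± 0.10, adjusted p = 0.000599). Eif2s1, the eIF2 subunit that the stress kinases phosphorylate, was at 67.4, 78.1 and 74.7 CPM in controls and 43.1, 37.1 and 43.8 CPM in PTEC DN RAR mice (log2 fold change -0.83 ± 0.10, adjusted p = 0.000584). Sec24d, a cargo adaptor of the vesicles that leave the ER, had 51.9 ± 4.18 CPM in controls and 33.1 ± 1.62 CPM in PTEC DN RAR libraries (SD, n = 3), a log2 fold change of -0.65 (edgeR adjusted p = 0.00117). The genotypes did not overlap for any of these genes.

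Creb3l2, a cleaved membrane factor related to ATF6, rose from 26.9 ± 4.25 to 46.4 ± 4.68 CPM (SD, n = 3), a log2 fold change of 0.78 (edgeR adjusted p = 0.00231). Wfs1, an ER membrane protein that regulates ATF6, rose from 10.2 ± 1.59 to 16.7 ± 1.08 CPM (SD, n = 3), a log2 fold change of 0.70 (edgeR adjusted p = 0.00514).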
